A study of Mus musculus with 8 samples.

Results

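Transcripts of neutrophils and lymphocytes were followed in RNA-seq libraries of lung endothelial cells from female C57BL6 mice. The members were taken by gene symbol from the deposited table of normalised read counts and numbered 10 of its 34899 genes. There were 5 neutrophil genes (S100a8, S100a9, Il1r2, Csf3r and Cxcr2), 4 lymphocyte genes (Cd3e, Cd79a, Ms4a1 and Nkg7) and Ptprc, the gene of the gate. The cells had been taken by flow cytometry for CD31 at the surface and for the lack of CD45, the protein that Ptprc encodes. The groups were HF and LF, with 4 mice and 4 libraries each. The labels do not spell these names out, nor do they state the age of the mice. The series title sets the comparison in a study of obesity, oxidants of neutrophils and the inflamed vessel wall.

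Neutrophils are short-lived phagocytes made in the bone marrow and released under the control of granulocyte colony-stimulating factor. The lung holds a large pool of them inside its capillaries, in contact with endothelium, and they cross the vessel wall when chemokines call them. T cells, B cells and natural killer cells pass through the same vessels, and all of these leukocytes carry CD45. A sort for cells without CD45 is meant to leave them out.

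All 10 members had the lower fitted mean in HF, and none passed the test. Il1r2 stood out, with 7.37 ± 4.53 normalised read counts in HF and 25.8 ± 15.7 in LF (SD, n = 4 each) and every HF value below every LF value. As background, 46.8% of the 17067 genes tested had the lower mean in HF, and 67.7% of the 7959 genes tested with a mean under 200, where every member lies. The median log2 fold change of HF over LF was -0.78 over the 10 members, 2 of which were below the filter on low values. It was 0.02 over all genes tested and -0.18 over those with a mean under 200. In bulk libraries, fewer cells of a type and less RNA per cell cannot be told apart.

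Values are the authors' normalised read counts, which are not scaled for gene length. Libraries held 10631506 (LF 1) to 20781564 (HF 4) reads in genes, and 3 reads corresponded to 2.36 to 3.66 normalised counts. Pecam1, which encodes CD31, lay between 19424 and 33236 in the 8 libraries, and Cdh5, the cadherin of endothelial junctions, between 9595 and 13204. LF 1 and LF 2 stood apart from the rest: the summed level of 18 endothelial markers was 213472 in LF 1 and 233579 in LF 2, against 292443 to 356206 in the other 6 libraries. Fits that leave this pair out, or the other LF pair (LF 3, LF 4), are therefore given as well.

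In GRCm38 coordinates, the genes of the receptors lie on chromosome 4 (Csf3r, 126024550 to 126044440) and chromosome 1 (Cxcr2, 74153989 to 74161246; Il1r2, 40074079 to 40125231). Ptprc is also on chromosome 1 (138062861 to 138175708). Of the lymphocyte genes, Cd79a (24897381 to 24902197) and Nkg7 (43437073 to 43438249) are on chromosome 7, Cd3e on chromosome 9 (44998740 to 45009627) and Ms4a1 on chromosome 19 (11249675 to 11266241).

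Levels of different genes were compared per kb of exon, as normalised counts divided by exon length. That length joins all annotated exons of a gene, 18.3 kb for Ptprc, 6.19 for Ms4a1 and 4.08 for Cd3e. A single transcript can be shorter, so order and percentages per kb depend on this choice. S100a9 was the most abundant member at 133 ± 66.2 per kb (SD, n = 8 libraries), followed by S100a8 at 101 ± 59.9. S100a9 was above S100a8 in 8 of 8 libraries, although their ranges overlapped. Per kb, the mean of S100a8 was 2.35% and that of S100a9 3.08% of the mean of Pecam1. Nkg7 (29.5 ± 28.2 per kb), Cd79a (18.8 ± 4.98), Csf3r (12.4 ± 11.9), Ptprc (9.96 ± 3.49) and Il1r2 (8.69 ± 7.62) formed a middle group. Neighbours in that order had overlapping ranges, and Nkg7 was above Cd79a in 3 of 8 libraries. Cxcr2 followed at 5.41 ± 3.97, and Ms4a1 and Cd3e were the scarcest at 1.48 ± 0.832 and 0.800 ± 0.760 per kb. The plot of levels per length shows the members well below the endothelial genes.

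**Figure D1:**
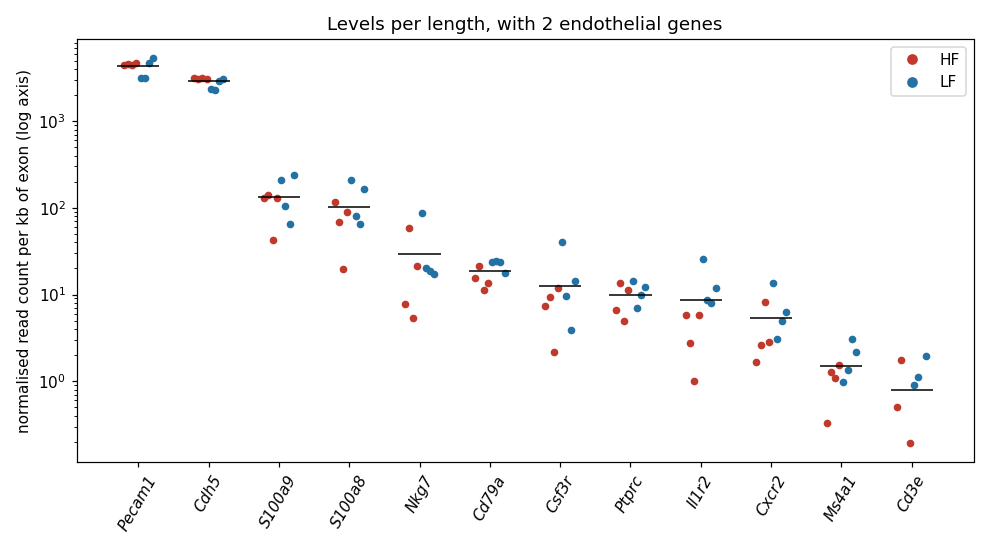
Normalised read counts per kb of exon (log axis) of the 10 members and of Pecam1 and Cdh5, 1 point per library (HF red, LF blue), with the mean of the 8 libraries as a line; Cd3e was at 0 in HF 3 and LF 3, which have no point. Every member lies below Cdh5 in every library, with S100a9 and S100a8 the highest of them.

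S100a8 and S100a9 encode the subunits of calprotectin, a calcium-binding protein that fills the cytoplasm of neutrophils and is also made by monocytes. They lie close together on chromosome 3 of GRCm38, S100a8 from 90668978 to 90670035 on the plus strand and S100a9 from 90692632 to 90695721 on the minus strand, and neither overlaps another gene in GENCODE M21. Their RefSeq promoters (GRCm38.p6, 300 bases around the start of the gene) are shown because these members had the highest Pearson's r over the 8 libraries. That holds among the 25 relations computed, and by Spearman's rho S100a8 was closer to Csf3r (0.857) than to S100a9 (0.833). Capitals mark matches on either strand to TTNNGNAA, a pattern of C/EBP factors, and to AGGAAG, a pattern of PU.1 and other ETS factors. Both factors are known regulators of granulocyte genes.
S100a8 (chr3:90668821-90669120, plus strand): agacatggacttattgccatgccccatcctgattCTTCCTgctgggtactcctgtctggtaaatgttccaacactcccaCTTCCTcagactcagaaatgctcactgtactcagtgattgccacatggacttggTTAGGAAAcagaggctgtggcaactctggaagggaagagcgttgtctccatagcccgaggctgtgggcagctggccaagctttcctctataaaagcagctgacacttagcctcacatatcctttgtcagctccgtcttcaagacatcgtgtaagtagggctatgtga
S100a9 (chr3:90695672-90695971, minus strand): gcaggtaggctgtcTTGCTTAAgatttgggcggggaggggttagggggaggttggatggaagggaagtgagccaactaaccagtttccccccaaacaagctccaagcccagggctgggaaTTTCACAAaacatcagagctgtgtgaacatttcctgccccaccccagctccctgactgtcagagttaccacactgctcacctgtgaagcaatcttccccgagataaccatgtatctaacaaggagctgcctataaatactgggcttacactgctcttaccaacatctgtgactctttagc
TTNNGNAA was found in 40.7% of the 32851 promoters of the same length and AGGAAG in 35.4%, so a match describes the letters and is common. The S100a8 window holds both patterns, which do not overlap there, and the S100a9 window holds TTNNGNAA only.

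S100a8 was at 80.3, 47.1, 13.6 and 61.4 normalised counts in HF 1 to HF 4 and at 144, 56.3, 45.2 and 114 in LF 1 to LF 4. The groups overlapped, with LF 1 and LF 4 above every HF library and HF 3 below all others. Its fold of HF over LF was 0.533 (95% interval 0.247 to 1.15; limma adjusted p = 0.537). S100a9 was at 68.1, 72.9, 22.3 and 67.7 in HF and at 109.8, 54.5, 34.1 and 124 in LF. Again LF 1 and LF 4 were the highest and HF 3 the lowest, while the other HF libraries lay above LF 2 and LF 3. Its fold was 0.742 (0.373 to 1.47; limma adjusted p = 0.727).

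The 3 receptors among the neutrophil genes read signals of inflammation and recruitment. Il1r2 is a decoy receptor that binds interleukin-1 without passing on a signal. It was at 11.2, 5.33, 1.94 and 11.03 normalised counts in HF 1 to HF 4 and at 48.8, 16.6, 15.1 and 22.6 in LF 1 to LF 4. The highest HF library lay below the lowest LF library, and LF 1 was well above the other LF libraries. These values rest on 2 to 14 reads in HF and 15 to 40 in LF. The exact Poisson interval of the highest HF value (5.58 to 20.0) overlapped that of the lowest LF value (8.43 to 24.8). The fold was 0.301 (0.134 to 0.678), with an unadjusted limma p of 0.00724 and an adjusted p of 0.256. Of the genes tested, 1.96% had all HF values below all LF values, as 1 of the 10 members did; among those with a mean under 200 the share was 2.68%. An unadjusted limma p under 0.05 with the lower mean in HF was found in 4.67% of the genes tested and in 1 of the 8 members tested, against 6.97% of the genes tested with a mean under 200. Il1r2 passed the filter with 4 LF and 2 HF libraries at 10 or more, so the LF libraries alone would have let it pass. Its gene overlaps the antisense gene Gm16894 and the gene model Gm37347, and shares no exon with either.

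Csf3r encodes the receptor of granulocyte colony-stimulating factor. It was at 26.4, 33.8, 7.77 and 43.3 in HF and at 145, 35.1, 14.1 and 52.0 in LF. LF 1 was far above the other 7 libraries, and the other LF values (14.1 to 52.0) overlapped most of the HF range (7.77 to 43.3). The fold was 0.545 (0.207 to 1.44; limma adjusted p = 0.623). Cxcr2, the receptor for chemokines that draw neutrophils out of vessels, was at 5.08, 7.998, 25.3 and 8.67 in HF and at 41.5, 9.24, 15.1 and 19.2 in LF. HF 3 was the highest HF library for Cxcr2, although it was the lowest of all for the other neutrophil genes. The fold was 0.560 (0.249 to 1.26; limma adjusted p = 0.581), and Cxcr2 reached 10 counts in the 4 libraries the filter asks for, 1 HF and 3 LF.

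**Figure D2:**
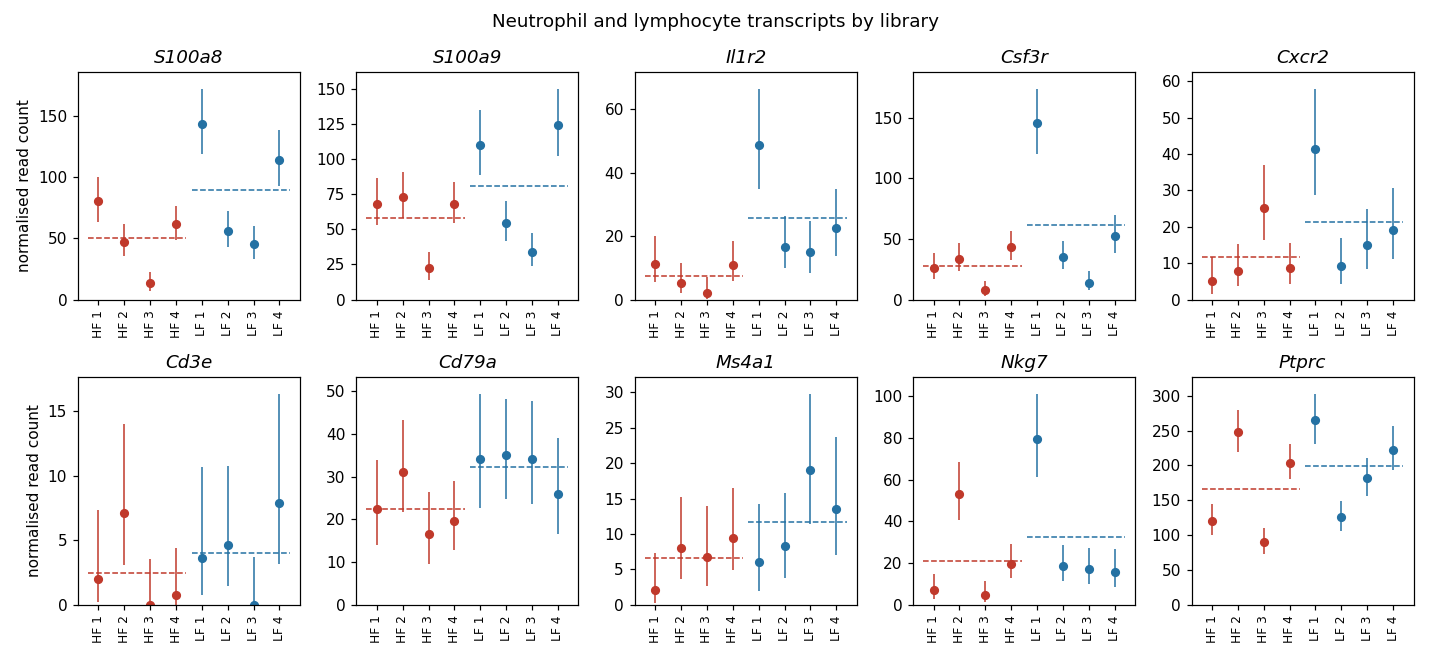
Normalised read counts of the 10 members in the 8 libraries (HF red, LF blue), with exact Poisson 95% intervals of the reads as bars and group means as dashed lines. Il1r2 is the member whose HF values (1.94 to 11.2) all lie below its LF values (15.1 to 48.8); LF 1 is the highest library for 6 members.

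Among the lymphocyte genes, Cd79a, a signalling chain of the B cell receptor, was the most even. It was at 22.4, 31.1, 16.5 and 19.7 normalised counts in HF and at 34.2, 35.1, 34.1 and 26.0 in LF. The groups overlapped only because HF 2 lay above LF 4. The fold was 0.689 (0.440 to 1.079; limma adjusted p = 0.529). The spread among libraries was 1.93 times the variance of counting alone in HF and 0.507 times in LF. For Csf3r it was 8.75 and 50.9 times.

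Ms4a1 encodes CD20, a surface protein of B cells. It was at 2.03, 7.998, 6.80 and 9.45 in HF and at 6.10, 8.31, 19.1 and 13.6 in LF, with LF 3 and LF 4 above every HF library. Only 2 libraries reached 10, so Ms4a1 was below the filter, and an exact two-sided permutation test gave p = 0.229 for its fold of 0.582. Cd3e, part of the T cell receptor complex, was the scarcest member at 2.03, 7.11, 0 and 0.788 in HF and at 3.66, 4.62, 0 and 7.92 in LF. Its groups covered nearly the same range. A limit of 3 reads for a count of 0 gives up to 2.91 and 3.01 normalised counts in HF 3 and LF 3, for counting error only; the exact two-sided Poisson intervals drawn in the plot by library end at 3.58 and 3.70. Cd3e was also below the filter (fold 0.659, exact two-sided permutation p = 0.514). It shares exonic bases with the antisense gene Gm48719, and without a stated strand setting their reads cannot be told apart.

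Nkg7, a granule protein of natural killer cells and cytotoxic T cells, was at 7.11, 53.3, 4.86 and 19.7 in HF and at 79.3, 18.5, 17.1 and 15.8 in LF. Its level turned on single libraries, LF 1 and HF 2, with the other 6 between 4.86 and 19.7. The fold was 0.579 (0.204 to 1.64; limma adjusted p = 0.677). Like Il1r2, Nkg7 reached 10 counts in 4 LF and 2 HF libraries, so the LF libraries alone would have let it pass the filter. Ptprc, the tyrosine phosphatase CD45 of all leukocytes, was at 121, 248, 90.4 and 204 in HF and at 265, 127, 182 and 223 in LF. The groups overlapped over most of their range, with HF 3 lowest and LF 1 highest. The fold was 0.800 (0.498 to 1.29; limma adjusted p = 0.708), and per kb its mean was 0.231% of that of Pecam1.

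At a Benjamini-Hochberg adjusted p under 0.05, limma called 0.0% of the genes tested and 0 of the 8 members tested, with 1882 genes at an unadjusted p under 0.05. On recovered reads, edgeR with its quasi-likelihood test called 0.0% and likewise no member (1905 genes at an unadjusted p under 0.05). DESeq2 called 1.81% of the genes and 0 of the 8 members, where Il1r2 had a DESeq2 adjusted p of 0.0916. The authors' deposited table lists a log2 fold change below 0 for all 10 members. It gives an adjusted p for 6 of them, none under 0.05. For Il1r2 the authors' deposited table has a log2 fold change of -1.79 with a standard error of 0.595 and a p-value of 0.00263, with no adjusted p.

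Without LF 1 and LF 2, limma called 3.76% of the genes and 0 of the 8 members. Without LF 3 and LF 4 it called 20.0% and again 0 of the 8, with Il1r2 at an adjusted limma p of 0.0545. In the first of these fits the log2 fold change was -1.43 for Il1r2, -0.20 for Csf3r and -0.20 for Nkg7. In the second it was -2.04, -1.56 and -1.38. Leaving out HF 3 brought the log2 fold change of S100a8 from -0.91 to -0.38, of S100a9 from -0.43 to -0.033 and of Ptprc from -0.32 to -0.069. Leaving out LF 1 brought Csf3r from -0.88 to -0.31, Nkg7 from -0.79 to -0.25 and Ptprc to -0.17.

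**Figure D3:**
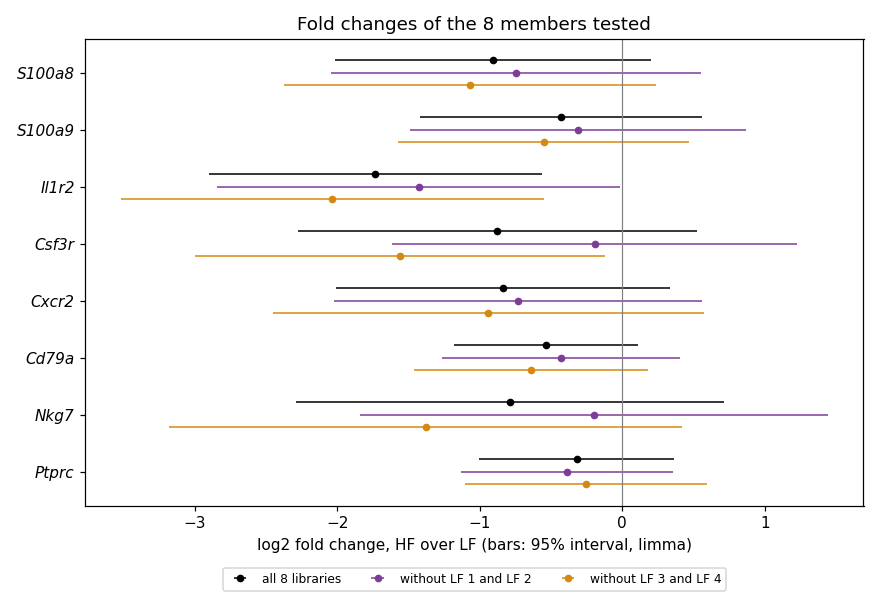
Log2 fold changes of HF over LF with limma's 95% intervals for the 8 members tested, with all 8 libraries (black), with LF 1 and LF 2 left out (purple) and with the other LF pair left out (orange). All points lie below 0, and the intervals of Il1r2 lie below 0 in each of the 3 fits, while its adjusted p misses the threshold in all of them.

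Among the neutrophil genes, S100a8 varied with S100a9, Csf3r and Il1r2, and its relation to Cxcr2 did not pass the test. Over the 8 libraries, log2 levels of S100a8 and S100a9 had Pearson's r = 0.919 (exact permutation p = 0.00126, adjusted p = 0.0236 over 25 relations) and Spearman's rho = 0.833 (exact permutation p = 0.0154, adjusted 0.128). For deviations from the group means r was 0.930, and without HF 3 and LF 1, the libraries farthest from the median of S100a8, it was 0.807. S100a8 and Csf3r had r = 0.886 (exact permutation p = 0.00657, adjusted 0.0329) and rho = 0.857 (exact permutation p = 0.0107, adjusted 0.128). S100a8 and Il1r2 had r = 0.903 (exact permutation p = 0.00377, adjusted 0.0236) and rho = 0.738 (exact permutation p = 0.0458, adjusted 0.164). Without HF 3 and LF 1, these fell to 0.600 and 0.560, so both relations rest largely on those libraries. S100a8 and Cxcr2 had r = 0.045 (exact permutation p = 0.920) and rho = 0.095 (exact permutation p = 0.840), and r = 0.216 without HF 3 and LF 1. The r of Cxcr2 with S100a9 rose from 0.016 to 0.780 without HF 3 and LF 3. Without HF 3 and LF 1, its r with Il1r2 rose from 0.290 to 0.635 and that with Csf3r fell from 0.231 to 0.049. How closely Cxcr2 follows the other neutrophil genes thus depends on which libraries are kept. S100a9 and Csf3r had r = 0.899 (exact permutation p = 0.00337, adjusted 0.0236) and rho = 0.786 (exact permutation p = 0.0279, adjusted 0.153), and r = 0.680 without HF 3 and LF 3. Il1r2 did not pass with S100a9 (r = 0.712, exact permutation p = 0.0471, adjusted 0.131; rho = 0.548, adjusted 0.356) or with Csf3r (r = 0.815, exact permutation p = 0.0204, adjusted 0.0848; rho = 0.714, adjusted 0.180). Without HF 3 and LF 1 the r of Il1r2 and Csf3r was 0.0996. No rho of the 25 relations passed the adjustment. All points share the size factor of their library, and several genes rest on few reads.

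**Figure D4:**
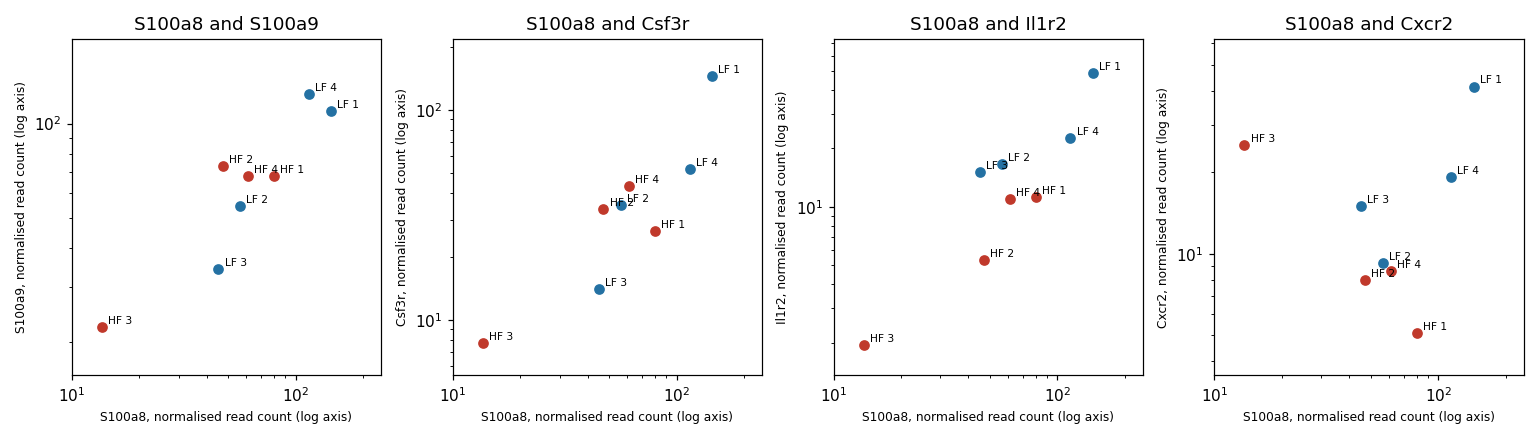
Normalised read counts of S100a8 against S100a9, Csf3r, Il1r2 and Cxcr2 in the 8 libraries (both axes logarithmic, HF red, LF blue). HF 3 is lowest and LF 1 or LF 4 highest for S100a9, Csf3r and Il1r2, while HF 3 is the second highest library for Cxcr2.

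None of the 6 relations among lymphocyte genes passed the adjustment. Cd79a and Nkg7 had r = 0.692 (exact permutation p = 0.0598, adjusted 0.136) and rho = 0.571 (exact permutation p = 0.151, adjusted 0.356). Cd79a and Ms4a1, both of B cells, had r = 0.316 (exact permutation p = 0.460) and rho = 0.143 (exact permutation p = 0.752). Ptprc went most closely with Nkg7, with r = 0.864 (exact permutation p = 0.00362, adjusted 0.0236) and rho = 0.833 (exact permutation p = 0.0154, adjusted 0.128). Without HF 1 and HF 3 that r was 0.658.

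The genes tested whose log2 levels were most like those of a member were named by Pearson's r over the 8 libraries, as a description. For S100a8 they were Trem1, an activating receptor of neutrophils and monocytes (0.966), Chaf1b (0.943), Rrp12 (0.943), Rbm4 (0.940) and Apba2 (0.936). For Nkg7 they were Sash3 (0.980), the chemokine Ccl5 (0.960), Ptpro (0.945), Stap1 (0.943) and Gm43628 (0.923). Ptprc was most like Cd84 (0.964), Fcer1g, a signalling chain of Fc receptors (0.947), Nfam1 (0.943), Nckap1l (0.930) and Zfp108 (0.929). Cd79a was most like Zmat4 (0.982), Chst3 (0.952), Gm47963 (0.951), Lnpep (0.948) and Itgax, an integrin chain of dendritic cells and macrophages (0.947). The last list holds no gene known for B cells.

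Further genes of the same cells were read from lists that leave the members out. Of 17 genes of neutrophil granules, 8 were tested, all 8 had the lower mean in HF (median log2 fold change -0.93) and 0 were called. All but Chil3 had a mean under 200, where 67.7% of all genes tested were lower in HF. The filter can favour this direction, since the LF libraries alone let Cd177 pass. By mean count, Ctsg (2.92 in HF against 0 in LF) and Ngp (1.77 against 0.796), both untested, went the other way. The rest of the untested genes were lower in HF. Lcn2, the siderophore-binding protein of specific granules, was at 48.8 ± 13.8 in HF and 87.1 ± 18.6 in LF (SD, n = 4 each) with groups that did not overlap (fold 0.557, limma adjusted p = 0.256). Chil3, which macrophages also make, was at 521 ± 298 against 1079 ± 381 (limma adjusted p = 0.285) and was the most abundant of them. Pglyrp1, a peptidoglycan-binding protein of granules, was at 65.2 ± 10.2 against 87.6 ± 15.9 (0.515). The summed level was 401 to 1025 in HF and 1094 to 1868 in LF, of which Chil3 made up 47.0% (HF 3) to 86.4% (LF 3). Without Chil3, a sum added after the values were seen, it was 205 to 273 in HF and 254 to 378 in LF, and the groups overlapped. Without HF 3 the median of the list was -0.46. Of the 17 genes, 8 had a mean under 3: Mpo was at 0 in 7 of 8 libraries, Fcnb in 7, Cebpe in 6, Ctsg in 5, Camp in 4 and Ngp in 2, and Elane had a mean of 1.97. Ly6g, the surface marker used to sort mouse neutrophils and the last of these 8, was at 0 in 6 of 8 libraries. Other granule genes were present, chosen here after their values were seen: Ltf, lactoferrin of specific granules, was at 38.1 to 78.0 in the 8 libraries (log2 fold change -0.072, limma adjusted p = 0.931), and Mmp8 and Prtn3 had means of 10.05 and 9.22. Which cells the transcripts of Lcn2 and Ltf came from was not tested.

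Of 30 genes of mature neutrophils, 23 were tested, 20 had the lower mean in HF (median -0.56) and 0 were called. The median was -0.82 without LF 1 and LF 2 (19 of 23 lower, 1 called, against 3.76% of all genes tested). It was -0.31 without LF 3 and LF 4 (17 of 23 lower, 3 called, against 20.0% of all genes tested). Of the 30, 2 had a mean under 3. G0s2, an inhibitor of triglyceride lipase, was at 304 ± 37.0 in HF and 543 ± 125 in LF without overlap (fold 0.569, limma adjusted p = 0.163). Trem1 was at 23.9 ± 11.9 against 54.0 ± 21.96 (limma adjusted p = 0.361), Selplg, the ligand of P-selectin, at 111 ± 28.9 against 178 ± 53.5 (0.335) and Il1b, the cytokine interleukin-1 beta, at 152 ± 71.3 against 301 ± 155 (0.362). The most abundant genes of the list were Ccrl2, which lung endothelium also expresses (4596 ± 362 against 3945 ± 1336), Grina (1664 ± 122 against 1671 ± 383) and Lrg1 (786 ± 68.0 against 684 ± 193). Their limma adjusted p values were 0.623, 0.967 and 0.621. They set the summed level of the list, 8153 to 9647 in HF and 7038 to 11344 in LF.

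Of 26 B cell genes, 10 were tested, 9 had the lower mean in HF (median -0.72) and 0 were called. Of the 26, 3 had a mean under 3. Ighm, the heavy chain of IgM, was at 51.5 ± 24.5 in HF and 109.7 ± 38.6 in LF (fold 0.457, limma adjusted p = 0.263). Cr2, the complement receptor, was at 28.4 ± 6.73 against 57.8 ± 30.5 (limma adjusted p = 0.397), and Igkc, the kappa light chain, at 34.8 ± 17.4 against 52.4 ± 22.4 (0.594). The summed level was 187 to 377 in HF and 339 to 616 in LF. Without HF 3 the median was -0.44, with 8 of 10 genes lower in HF. It was -0.68 without LF 1 and LF 2 (8 of 10 lower, 0 called). It was -0.77 without LF 3 and LF 4 (9 of 10 lower, 1 called, against 20.0% of all genes tested).

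Of 27 T cell genes, 14 were tested, 9 with the lower mean in HF (median -0.23) and 0 called. Of the 27, 6 had a mean under 3. Cd3d, Cd3g, Trac, Trbc1 and Trbc2, chosen here after their values were seen, had means of 3.98, 5.39, 11.2, 5.54 and 4.74. The chemokine receptor Ccr7 was at 25.6 ± 11.1 in HF and 51.6 ± 18.5 in LF (limma adjusted p = 0.370). The transcription factor Lef1 was at 50.6 ± 8.81 in HF and 86.8 ± 22.5 in LF without overlap (limma adjusted p = 0.293). Its relative Tcf7 had the higher mean in HF, at 357 ± 58.0 against 267 ± 39.0 (0.390), and Cd247, a signalling chain of the T cell receptor, was at 224 ± 25.4 against 238 ± 70.1 (0.941). The summed levels overlapped, 845 to 1082 in HF and 883 to 1113 in LF. Tcf7 and Cd247, with means of 312 and 231 over the 8 libraries, weigh most in these sums. Lef1 came next at 68.7. Without LF 1 the median was -0.14. It was -0.22 without LF 1 and LF 2 (8 of 14 lower, 0 called). It was -0.40 without LF 3 and LF 4 (11 of 14 lower, 1 called, against 20.0% of all genes tested).

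Of 21 genes of natural killer cells, 6 were tested, 5 with the lower mean in HF (median -0.21) and 0 called. Of the 21, 5 had a mean under 3, among them Cma1 (mean 1.34, not tested), which encodes a protease of mast cells. Gzmb, the protease granzyme B, was at 27.3 ± 11.9 against 38.8 ± 37.5 (limma adjusted p = 0.907), where the log2 fold change was 0.29 and so opposite in sign to the difference of the means, Ctsw at 27.5 ± 14.01 against 30.4 ± 9.90 (0.824) and Ccl5 at 19.3 ± 24.1 against 35.2 ± 34.8 (0.610). Lower and higher means in these lists are those fitted on the log2 scale. As for Nkg7, LF 1 (411) and HF 2 (409.7) had the highest summed levels, with 115 to 237 in the other libraries. Of these genes, 3 of 6 had the lower mean in HF without LF 1 and the median was -0.071.

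Of 24 genes shared by leukocytes beside Ptprc, 23 were tested, 22 with the lower mean in HF (median -0.50) and 0 called. Lsp1, an actin-binding protein of leukocytes, was at 139 ± 45.4 in HF and 214 ± 22.1 in LF (limma adjusted p = 0.303). Rac2, the small GTPase of the phagocyte oxidase, was at 58.9 ± 14.6 against 106 ± 37.9 (0.324), Vav1 at 16.7 ± 8.92 against 33.7 ± 7.83 (0.334) and Itgam, the CD11b integrin chain, at 8.93 ± 9.42 against 24.6 ± 9.15 (0.335). Laptm5 was at 327 ± 215 against 452 ± 94.9 (0.518), Coro1a at 175 ± 88.9 against 233 ± 61.9 (0.569) and Lcp1, the most abundant, at 2892 ± 383 against 2671 ± 325 (0.753). The summed level was 3875 to 6174 in HF and 4304 to 6107 in LF. Lcp1, with a mean of 2782 over the 8 libraries, weighs most in these sums, and Laptm5 came next at 390. Among the genes tested, Lcp1 was also the only gene with the higher mean in HF.

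**Figure D5:**
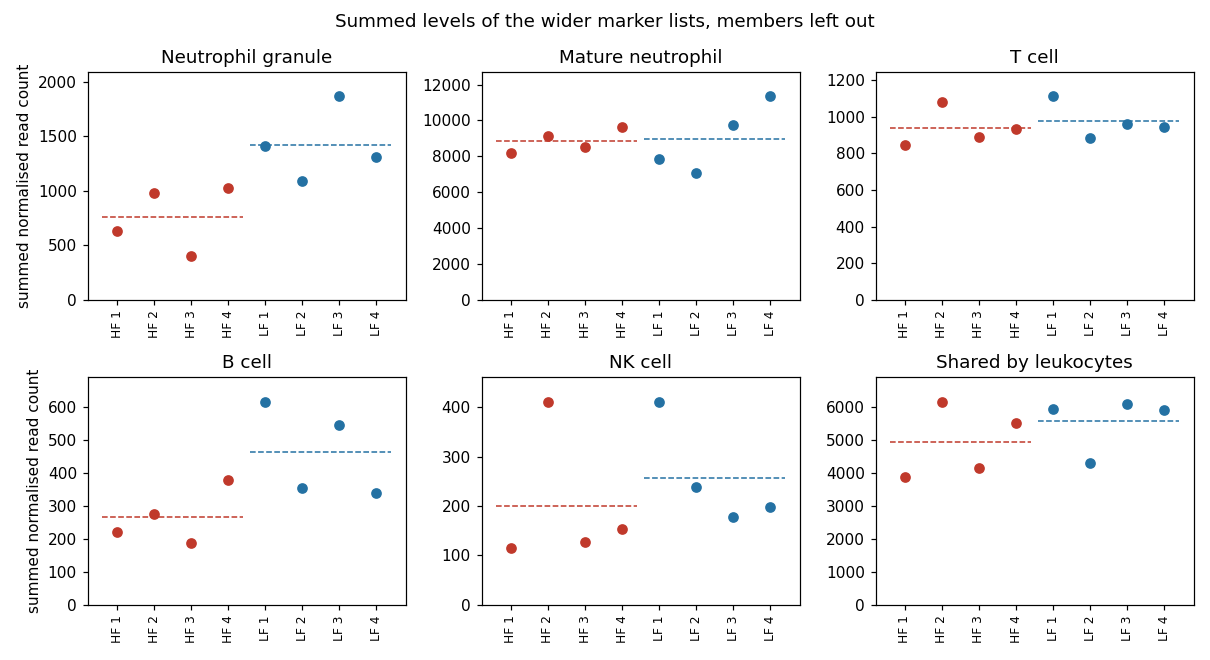
Summed normalised read counts of 6 marker lists in the 8 libraries (HF red, LF blue), members left out, with group means as dashed lines. The granule sums do not overlap between the groups (401 to 1025 in HF and 1094 to 1868 in LF), but overlap once Chil3 is taken out (205 to 273 and 254 to 378); LF 1 and HF 2 stand above the rest in the natural killer cell list.

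Markers of other cells were read in the same way. Of 21 monocyte and macrophage genes tested, 17 had the lower mean in HF (median -0.58), with summed levels of 9208 to 13565 in HF and 12008 to 13972 in LF. The lower mean in HF was also found for 13 of 14 epithelial genes (median -0.48; sums 16831 to 25833 in HF and 21525 to 36272 in LF) and 13 of 14 mesenchymal genes (median -0.53; 5884 to 8231 and 7683 to 12361). For erythrocyte and platelet genes it was 8 of 14 (median -0.26; 23632 to 26865 and 25694 to 45508). The higher mean in HF was found for 17 of 18 endothelial genes (median 0.21; 292443 to 338205 in HF and 213472 to 356206 in LF). Without LF 1 and LF 2 the median was -0.052 for the endothelial, -0.053 for the epithelial (9 of 14 lower), -0.44 for the mesenchymal, -0.43 for the erythrocyte and platelet and -0.82 for the monocyte and macrophage genes. Without LF 3 and LF 4 the median was 0.45 for the endothelial, -0.96 for the epithelial (13 of 14 lower) and -0.68 for the mesenchymal genes. It was then 0.0094 for the erythrocyte and platelet genes and -0.34 for the monocyte and macrophage genes (13 of 21 lower). The erythrocyte and platelet median was -0.033 without HF 3 (7 of 14 lower), and the endothelial median was 0.10 without LF 1. Genes called were 1 endothelial, 2 epithelial, 1 mesenchymal, 6 erythrocyte and platelet and 2 monocyte and macrophage without LF 1 and LF 2. Without LF 3 and LF 4 they were 14, 8, 6, 0 and 5 in that order. Shares over all genes tested were 3.76% and 20.0%. No gene of these lists was called with all 8 libraries, and 1 of their genes, of monocytes and macrophages, had a mean under 3. Their part in the values of the neutrophil and lymphocyte genes was not tested.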

How the data were processed

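TRIzol LS was used for RNA and a SMART-Seq kit for the libraries, per the labels' protocols. The submitters' processing notes list DESeq2 1.24.0, featureCounts 2.0.0 and STAR 2.6.1b, in no order. Not given in the sources used here are genome build, annotation and strand setting. The authors deposited normalised read counts (a signal, not scaled for length) and, per the file headers, their mean, a log2 fold change and its error, the Wald score, the raw p-value and its adjusted form.

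Values of each library were whole multiples of 1 step (100% within 0.01 reads), so whole reads were recovered by size factors of 0.820 to 1.27. Genes reaching 10 normalised counts in 4 or more libraries entered limma 3.58.1 (R 4.3.3) on log2(normalised count + 1), with its variance trend, two-sided, without covariates, adjusted by Benjamini-Hochberg over all 17067 genes. Folds are on that scale, where the added 1 draws the folds of low genes towards 1. They compare means of logs, so they can lie on either side of the ratio of mean counts. For Nkg7 the fold was 0.579 and that ratio 0.650, and for Csf3r they were 0.545 and 0.452. edgeR 4.0.16 and DESeq2 1.42.0 were run on the recovered reads. The main limma fit, edgeR and DESeq2 were tested on simulated data, and the alternative limma fits were not. The 4 libraries of 1 group were enough to pass the filter. For Il1r2, Nkg7, Csf3r, Cd177 and Itgam, among others, only LF had all 4 libraries at 10 or more. Members below the filter had an exact permutation test over 70 assignments, unadjusted. Correlations used all 40320 orderings.

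All 34899 IDs matched GENCODE M21 (GRCm38), which gave positions and exon lengths, and all 10 members matched by symbol. Of the symbols, 24 had become dates and were restored. Columns of per-sample values left unused numbered 0. Of each wider list, the 3 most abundant genes and up to 4 with an unadjusted p under 0.05 are named. For natural killer cells no gene reached that p, and 1 gene that the rule names is not reported here. The monocyte, macrophage, endothelial, epithelial, mesenchymal, erythrocyte and platelet lists are given by counts. Members and lists were chosen with earlier results of these data known. Poisson intervals and floors (3 reads) cover counting error only, since amplified reads without molecular identifiers are not independent molecules.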

Additional observations from a re-analysis of the deposited data

Results flagged for a closer look

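In groups of 4 libraries, the gap from an extreme library to its nearest neighbour was divided by the range of the group and set against Dixon's 95% critical value for that number. Of 34 groups checked, 5 exceeded it, where chance flags about 5% of groups. S100a9 was far lower in HF 3 than in the other HF libraries (gap 0.899 of the range). Cd79a was lower in LF 4 than in the other LF libraries (0.893). The spread of its LF values was only 0.507 times the variance of counting alone. The exact Poisson interval of LF 4 (16.5 to 39.0) covered the other LF values (34.1 to 35.1), so counting error alone covers this gap. Nkg7 was far higher in LF 1 (0.958 of the LF range). The summed natural killer cell list was far higher in HF 2 than in the other HF libraries (0.871). The summed list of genes shared by leukocytes was lower in LF 2 than in the other LF libraries (0.895).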

How the results depend on the processing

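The 8 members tested kept a negative log2 fold change and an adjusted p above 0.05 under all 18 alternatives, and Ms4a1 (-1.32 to -0.24) and Cd3e (-1.26 without LF 3 to -0.15 without HF 3) stayed below 0 under the 14 that could be run for them. Ms4a1 was at -0.39 without HF 1. The ranges were -2.04 to -1.28 for Il1r2 (adjusted p 0.0545 to 0.534), -1.21 to -0.38 for S100a8, -0.78 to -0.033 for S100a9, -1.56 to -0.20 for Csf3r, -1.26 to -0.46 for Cxcr2, -0.70 to -0.41 for Cd79a, -1.40 to -0.20 for Nkg7 and -0.55 to -0.069 for Ptprc. Genes called numbered 0 in limma with all libraries, 309 by DESeq2, 1 without the filter, 641 without LF 1 and LF 2, 3421 without LF 3 and LF 4, and 0 to 1 with single libraries left out. Same-numbered libraries deviated together in HF 1 and LF 1 (r = 0.115) and HF 4 and LF 4 (0.185). They did not in HF 2 and LF 2 (-0.222) or HF 3 and LF 3 (-0.143), while HF 1 and LF 2 had 0.306. Such correlations carry any difference between libraries, so they cannot decide whether the numbers pair the mice. With the replicate block, 0 genes and 0 members were called. The unadjusted limma p fell for S100a8 (0.100 to 0.0102), S100a9 (0.362 to 0.158), Csf3r (0.198 to 0.0603) and Il1r2 (0.00724 to 0.00225). It hardly moved for Nkg7 (0.277 to 0.274). It rose for Cd79a (0.0956 to 0.121), Cxcr2 (0.146 to 0.166) and Ptprc (0.328 to 0.339). Cd3e rests on 0 to 8 reads a library and Ms4a1 on 2 to 19, which sets their counting error. The cause of these changes was not tested.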

Other observations

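The neutrophil genes did not keep 1 ratio over the libraries. S100a8 was 0.609 to 1.32 times S100a9 in normalised counts in the 8 libraries. Csf3r was 2.71 to 5.20 times Cxcr2 in 6 libraries, but 0.308 times in HF 3 and 0.933 times in LF 3. In HF 3, Cxcr2 rests on 26 reads, and S100a8, S100a9, Csf3r and Il1r2 were all at their lowest. These ratios were computed after the values had been seen and were not tested.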
